A study of Mus musculus with 62 samples.

Results

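APPPS1 is a mouse model of Alzheimer's disease that carries transgenes leading to amyloid plaques, and the libraries described here are bulk RNA-seq libraries of CD11b+ brain cells from such mice at 12 months. The comparison set 3 APPPS1 libraries whose titles carry the tag Mxo4 against 5 APPPS1 libraries of the same age without it, which makes 8 of the 62 libraries of the series. What Mxo4 stands for is not given in the labels, so the comparison is named by the tag alone. A further tagged APPPS1 library, replicate 56, was set aside because it showed no transgene response, by the levels given below. Differences and calls were read only for genes on autosomes, and 19204 of them passed the filter on low counts.

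The 3 tagged libraries are replicates 57, 58 and 59, and the 5 untagged ones are replicates 35, 36, 37, 38 and 41. Both groups have intact Nlrp3. The series also holds tagged and untagged 12-month libraries of wild-type (WT), Nlrp3-deficient (NLRP3) and transgenic Nlrp3-deficient (APPPS1_NLRP3) mice, which give the tag difference in libraries that the choice of replicates did not touch. The labels name neither the APP/PS1 line nor the promoter that drives the transgenes, and they do not state if each library is an animal of its own. The p-values therefore measure only the spread between these samples.

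Microglia are the resident macrophages of the brain. Around amyloid plaques they switch on a disease-associated programme with genes such as Cst7, Clec7a, Itgax and Apoe and lower homeostatic genes such as P2ry12 and Tmem119. CD11b, the integrin used to isolate them, is also found on monocytes, neutrophils and macrophages of the brain borders, and isolates from brain can carry RNA of blood vessel cells, which are endothelial cells and the pericytes that wrap them.

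Total counts were 11769573, 20912997 and 20492815 in tagged replicates 57, 58 and 59, and they lay between 6187249 and 21456890 in the untagged libraries. Levels are given in CPM, counts scaled to library size with TMM factors, and differences are log2 values, tagged minus untagged, ± standard error. Read from Xist and Y-linked genes, tagged replicates 57 and 59 were male and 58 was female, whereas all 5 untagged libraries were female. Sex and tag are thus only partly separable, and replicate 58 is the one tagged library that shares its sex with the untagged ones. The library set aside, replicate 56, was male as well. The second number in the title was 1 in all 3 tagged libraries and in untagged replicates 36, 37 and 38, and it was a term in the model. The microglial marker Csf1r was high throughout: it reached 8072, 8644 and 8246 CPM in the tagged libraries and 4889.8 to 8263 CPM in the untagged ones.

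Replicate 56 was chosen for removal from the following values, which are a description and carry no test. Cst7, a cystatin of plaque-associated microglia, stood at 10.3 CPM in replicate 56, whereas it stood at 2298, 1984 and 1604 CPM in tagged replicates 57, 58 and 59 and between 1071 and 3756 CPM in the untagged libraries. Clec7a, the beta-glucan receptor dectin-1, stood at 57.6 CPM in replicate 56, against 966, 960 and 817 CPM in the 3 tagged libraries kept, and it lay between 56.4 and 177 CPM in the 6 WT libraries of this age. Itgax, the integrin CD11c, stood at 10.4 CPM against 372, 301 and 273 CPM in those 3. Apoe, the lipid carrier, stood at 994 CPM against 9289, 9738 and 10325 CPM in those 3. Replicate 56 thus lay apart from all 8 libraries compared in each of these 4 genes, at or near WT levels. A gene was counted as transgene-responsive if it was called in APPPS1 against WT at 12 months, untagged or tagged, which held for 4662 of the autosomal genes. Since such genes chose the libraries, their 3-library values are given as they are and the adjusted p comes from the fit that kept all 4 tagged libraries.

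In the edgeR quasi-likelihood fit with Benjamini-Hochberg adjustment, 553 of 19204 autosomal genes passed an adjusted p of 0.05, which is 2.88%. Of these, 112 were higher (0.583%) and 441 were lower (2.3%) in tagged libraries. Among the 14542 genes outside the transgene response, 266 passed (1.83%), of which 73 were higher (0.502%) and 193 were lower (1.33%). In 88 of the 112 higher genes every tagged library lay above every untagged one, and in 308 of the 441 lower genes every tagged library lay below. Over all autosomal genes such a separation was seen upward in 3.35% and downward in 4.28%. Calls and separation were read from the same libraries, so the larger share among called genes is no separate evidence. With replicate 56 kept, 1262 genes passed (6.56%), and 403 of the 553 were among them with the same sign. The median difference over all autosomal genes was -0.05. The count leaned on single libraries: it was 303, 183 and 108 without tagged replicates 57, 58 and 59, and 354, 1280 and 1205 without untagged replicates 38, 37 and 36.

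The genes that were higher in tagged libraries were few and mostly modest in size. They included Tmx4, a thioredoxin-related membrane protein of the endoplasmic reticulum, Fosb, a subunit of the AP-1 transcription factor, Bbc3, the pro-apoptotic protein PUMA, Odc1, the rate-limiting enzyme of polyamine synthesis, and Ago4, an Argonaute protein of small-RNA silencing. None of these 5 belongs to the transgene response. Tmx4 (ENSMUSG00000034723, GRCm38 chr2:134594185-134644145, minus strand) stood at 552, 518 and 526 CPM in the tagged libraries, against 258, 320.4, 296, 271 and 277 CPM in the untagged ones. The groups did not overlap, and replicate 56 lay with the tagged libraries at 579 CPM. The difference was 0.93 ± 0.15 (adjusted p = 0.000233, edgeR), and it passed in all 8 fits that left out 1 library.

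Fosb stood at 159, 283 and 311 CPM in the tagged libraries, against 75.1, 143, 127, 121 and 87.2 CPM in the untagged ones, a difference of 1.05 ± 0.28 (adjusted p = 0.0291, edgeR). Tagged replicate 57 lay close above the highest untagged library, and replicates 58 and 59 lay well above all of them. Odc1 stood at 126, 202 and 178 CPM in the tagged libraries, against 94.6, 104, 96.7, 116 and 109.6 CPM in the untagged ones, a difference of 0.73 ± 0.19 (adjusted p = 0.0216, edgeR), again with replicate 57 the lowest tagged value. Bbc3 stood at 11.9, 19.3 and 17.6 CPM in the tagged libraries, against 7.78, 8.76, 8.05, 8.53 and 6.88 CPM in the untagged ones, a difference of 0.95 ± 0.24 (adjusted p = 0.0178, edgeR). Iqcn, a gene that encodes an IQ-motif protein, gave the largest rise: it stood at 25.5, 44.5 and 44.5 CPM in the tagged libraries, against 4.98, 10.4, 11.2, 4.1 and 7.73 CPM in the untagged ones, a difference of 2.3 ± 0.55 (adjusted p = 0.0127, edgeR). The untagged libraries were all at or below 11.2 CPM. Iqcn, Bbc3 and Odc1 lost their call without replicate 58 or without 59, and Fosb without 58, 59, 38 or 35. With sex as a further term the adjusted p was 0.0912 for Fosb and 0.0563 for Odc1, which no longer passed, and 0.002 for Tmx4, 0.027 for Bbc3 and 0.0331 for Iqcn.

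**Figure D1:**
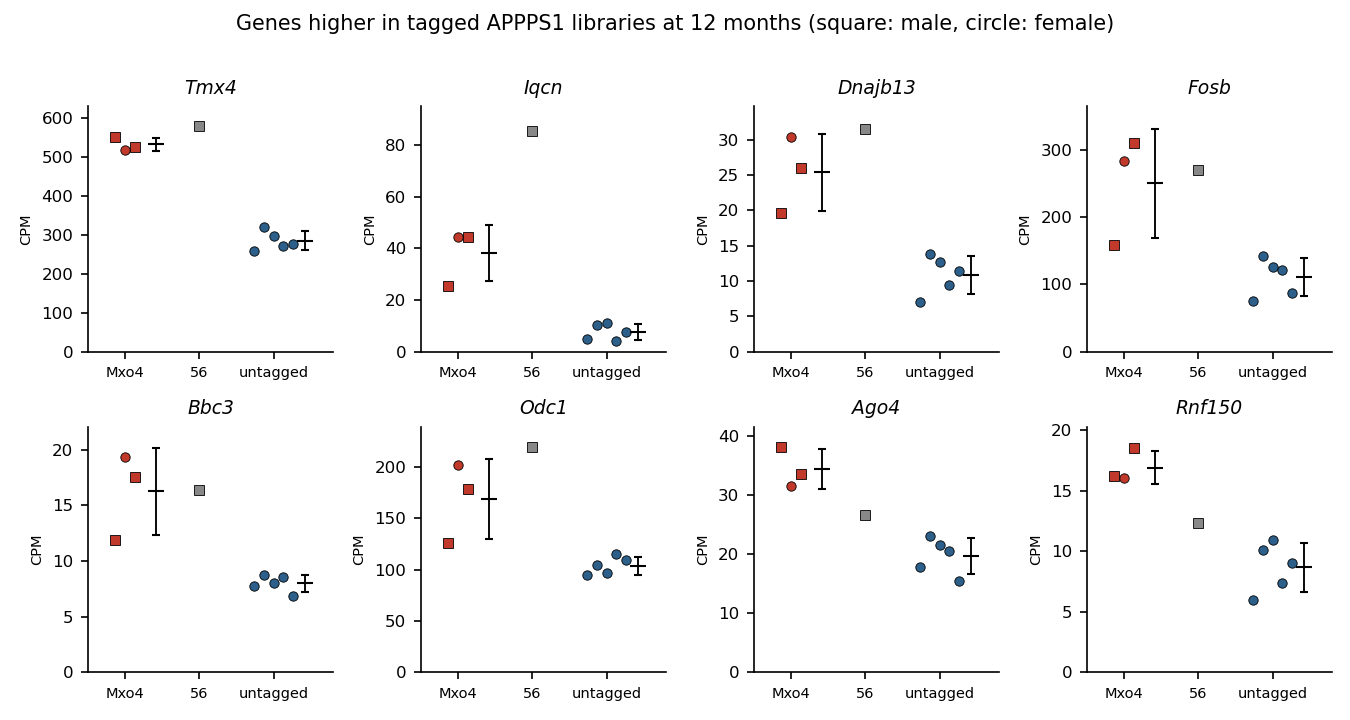
Each panel plots 1 gene in CPM (y axis from 0) for tagged APPPS1 replicates 57 to 59 (red), tagged replicate 56 (grey) and the 5 untagged APPPS1 libraries (blue), as squares for male and circles for female libraries. Black marks are the mean ± SD of a group without replicate 56. In Tmx4 the 3 tagged libraries sit between 518 and 552 CPM, all above the untagged ones.

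The stretch just upstream of the start of transcription is printed for those of the 15 named rises whose tag difference also passed in at least 2 of the 3 other genotypes, since these genes moved with the tag in separate sets of libraries. Of these 5 genes, Iqcn, Fosb, Tmx4 and Odc1 have 1 start in RefSeq and Bbc3 has 3, so Bbc3 is named only. The lines give the 150 bases before the RefSeq start on GRCm38.p6, 5′ to 3′ on the strand of the gene. Capitals mark TGACG, the half-site of the cAMP response element, and GGGCGG, the GC box, each searched on both strands, without overlap between the 2 motifs in these windows.
Tmx4, chr2:134644122-134644271, minus strand: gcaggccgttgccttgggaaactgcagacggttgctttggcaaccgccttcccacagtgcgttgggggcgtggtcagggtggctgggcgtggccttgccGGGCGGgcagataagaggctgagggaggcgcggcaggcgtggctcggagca
Fosb, chr7:19310046-19310195, minus strand: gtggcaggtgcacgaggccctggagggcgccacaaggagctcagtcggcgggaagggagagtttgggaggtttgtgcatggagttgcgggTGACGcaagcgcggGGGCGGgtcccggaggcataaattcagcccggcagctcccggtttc
Odc1, chr12:17544723-17544872, plus strand: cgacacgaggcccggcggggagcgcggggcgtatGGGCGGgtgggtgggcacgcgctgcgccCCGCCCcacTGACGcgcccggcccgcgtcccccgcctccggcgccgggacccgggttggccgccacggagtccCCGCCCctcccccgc
Iqcn, chr8:70701875-70702024, plus strand: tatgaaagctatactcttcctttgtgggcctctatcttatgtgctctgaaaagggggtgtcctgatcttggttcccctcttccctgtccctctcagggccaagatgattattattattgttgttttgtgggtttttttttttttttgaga

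TGACG begins 60 bases before the start in Fosb and 79 bases before it in Odc1, and it is found in 13.3% of 32851 RefSeq promoter windows of this length and in 19.2% of the 12242 tested autosomal genes with a window. GGGCGG is found once in Tmx4, once in Fosb and 3 times in Odc1, and in 28.6% of all windows and 49.4% of those of tested autosomal genes. The Iqcn window holds neither. That window ends at chr8:70702024, whereas the GENCODE gene used for its position starts at 70703457, so it does not adjoin the GENCODE start. These matches describe the letters only.

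Further genes were called higher. Ago4 stood at 38.1, 31.6 and 33.6 CPM in the tagged libraries, against 17.9, 23.2, 21.7, 20.6 and 15.5 CPM in the untagged ones (0.76 ± 0.16, adjusted p = 0.00532, edgeR). Ski, a repressor of TGF-beta signalling, stood at 334, 339.5 and 319 CPM in the tagged libraries, against 173, 265, 283, 255 and 156 CPM in the untagged ones (0.47 ± 0.11, adjusted p = 0.00839, edgeR). Farp2, an activator of Rac, averaged 10.3 ± 0.693 CPM in the tagged libraries and 6.1 ± 0.752 CPM in the untagged ones (SD, n = 3 and n = 5), a difference of 0.74 ± 0.16 (adjusted p = 0.00718, edgeR). These 3 genes kept their call in all 8 fits with 1 library left out and with sex as a term. Rnf150, a RING finger protein, averaged 16.9 ± 1.38 CPM in the tagged libraries and 8.68 ± 2.01 CPM in the untagged ones, with a difference of 0.84 ± 0.18 (adjusted p = 0.00511, edgeR), and its call was lost without replicate 59. Dnajb13, a co-chaperone known from the sperm flagellum, averaged 25.4 ± 5.44 CPM in the tagged libraries and 10.9 ± 2.67 CPM in the untagged ones, with a difference of 1.17 ± 0.31 (adjusted p = 0.025, edgeR), and its call was lost without replicates 58, 59, 38 or 35. Lrrc1, Dlg5 and Cracr2a also passed, at 1.07 ± 0.31, 1.05 ± 0.30 and 0.91 ± 0.26, and each lost its call without any one of 5 or 6 of the 8 libraries, replicates 57, 58 and 59 among them. With sex as a term the adjusted p was 0.11 for Dlg5 and 0.0589 for Cracr2a (edgeR). Among transgene-responsive genes, Colec12, a scavenger receptor, stood at 133, 121 and 122 CPM in the tagged libraries, against 18, 15.6, 75.4, 16 and 55.2 CPM in the untagged ones, and at 35.3 CPM in replicate 56, with an adjusted p of 0.0584 in the edgeR fit with 4 tagged libraries. Kcna3, the potassium channel Kv1.3, stood at 33.9, 56.7 and 38.8 CPM in the tagged libraries, against 14.2, 26.6, 23.5, 15 and 27.1 CPM in the untagged ones (adjusted p = 0.0957 with 4 tagged libraries, edgeR). Hhat, the acyltransferase of hedgehog proteins, stood at 8.73, 16.2 and 13 CPM in the tagged libraries, against 5.61, 7.34, 8.17, 4.5 and 4.3 CPM in the untagged ones (adjusted p = 0.0499 with 4 tagged libraries, edgeR). Leaving out 1 of 4 to 6 libraries ended the 3-library call of these 3 genes, tagged replicates 58 and 59 among them.

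Genes of blood vessels were lower in tagged libraries. They gave 6 of the 15 named falls, which were the largest among called genes with at least 5 CPM in the higher group and no overlap between the groups. Of 11 autosomal members of a list of endothelial and pericyte markers, 9 were called lower and none higher, with a median difference of -2.40, whereas 2.3% of all autosomal genes were called lower and their median was -0.05. With replicate 56 kept, 9 were again called lower, at a median of -1.74, and with it kept and sex as a further term 7 were, at a median of -2.02. The summed level of the list took all 12 tested genes, not the 11 autosomal ones alone. It was 151, 166 and 124 CPM in tagged replicates 57, 58 and 59, against 381 to 567 CPM in the untagged libraries, and replicate 56 lay between at 248 CPM. The female tagged replicate 58, at 166 CPM, lay below all 5 female untagged libraries. In bulk RNA, fewer cells of a type and less RNA per cell cannot be told apart. Depending on which of the 8 libraries was left out, between 4 and 10 of the 11 markers were called, the fewest without replicate 59, and with replicate 58 as the only tagged library none was, at a median of -2.04.

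Outside the transgene response, Ly6c1, an endothelial surface protein, stood at 24.6, 26.7 and 19.5 CPM in the tagged libraries, against 69.5, 57.3, 74.5, 82.6 and 83.4 CPM in the untagged ones (-1.69 ± 0.41, adjusted p = 0.0137, edgeR). The groups did not overlap. Cdh5, the endothelial cadherin, stood at 0.63, 1.31 and 0.919 CPM in the tagged libraries, against 2.59, 2.62, 6.78, 3.57 and 7.52 CPM in the untagged ones (-2.32 ± 0.56, adjusted p = 0.0131, edgeR). Pdgfrb, the platelet-derived growth factor receptor of pericytes, averaged 1.2 ± 1.03 CPM in the tagged libraries and 5.66 ± 3.36 CPM in the untagged ones (-2.4 ± 0.52, adjusted p = 0.00577, edgeR), and its call was lost without replicate 59. The vascular endothelial growth factor receptors Flt1 and Kdr did not pass: their differences were -0.66 ± 0.41 (adjusted p = 0.376) and -0.86 ± 0.27 (adjusted p = 0.0618, edgeR). Flt1 stood at 48.6, 59.1 and 42.8 CPM in the tagged libraries, against 66.8, 77.3, 89.8, 71.2 and 78.9 CPM in the untagged ones, without overlap.

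The other members lie among the transgene-responsive genes. Rgs5 (ENSMUSG00000026678, GRCm38 chr1:169655501-169695813, plus strand), a regulator of G-protein signalling in pericytes, stood at 2.7, 2.67 and 5.03 CPM in the tagged libraries and 5.73 CPM in replicate 56, against 27.4, 21, 28.4, 22.8 and 38.5 CPM in the untagged ones. With all 4 tagged libraries the difference was -2.72 ± 0.38 (adjusted p = 2.9e-05, edgeR). Vtn (ENSMUSG00000017344, GRCm38 chr11:78499091-78502324, plus strand), the matrix protein vitronectin made by pericytes in the brain, stood at 3.69, 3.43 and 2.38 CPM in the tagged libraries and 5.83 CPM in replicate 56, against 15.8, 24.5, 30.4, 21 and 40.6 CPM in the untagged ones, and the 4-library difference was -2.75 ± 0.42 (adjusted p = 8.7e-05, edgeR). In both genes replicate 56 lay close to the other tagged libraries and far below every untagged one. Slco1a4, an organic anion transporter of the blood-brain barrier, stood at 12.4, 15.7 and 12.2 CPM in the tagged libraries and 42.3 CPM in replicate 56, against 63.7, 50.6, 98.5, 84.4 and 82.5 CPM in the untagged ones (-1.86 ± 0.40, adjusted p = 0.0062 with 4 tagged libraries, edgeR). Tek, the angiopoietin receptor Tie2, stood at 2.88, 3.81 and 1.95 CPM in the tagged libraries and 9.6 CPM in replicate 56, against 13.5, 18.4, 26.9, 23.8 and 11.2 CPM in the untagged ones (-1.99 ± 0.45, adjusted p = 0.00777, edgeR). Cldn5, the tight junction protein claudin-5, stood at 3.51, 4.3 and 3.68 CPM in the tagged libraries and 12.9 CPM in replicate 56, against 13.6, 17.5, 21.7, 22.3 and 30.9 CPM in the untagged ones (-1.74 ± 0.48, adjusted p = 0.0245, edgeR). In these 3 genes replicate 56 lay between the other tagged libraries and the untagged ones. Pecam1, an adhesion protein of endothelium and of some leukocytes, was at 33.6 CPM in replicate 56, within the untagged range, and did not pass with 4 tagged libraries (adjusted p = 0.191, edgeR).

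**Figure D2:**
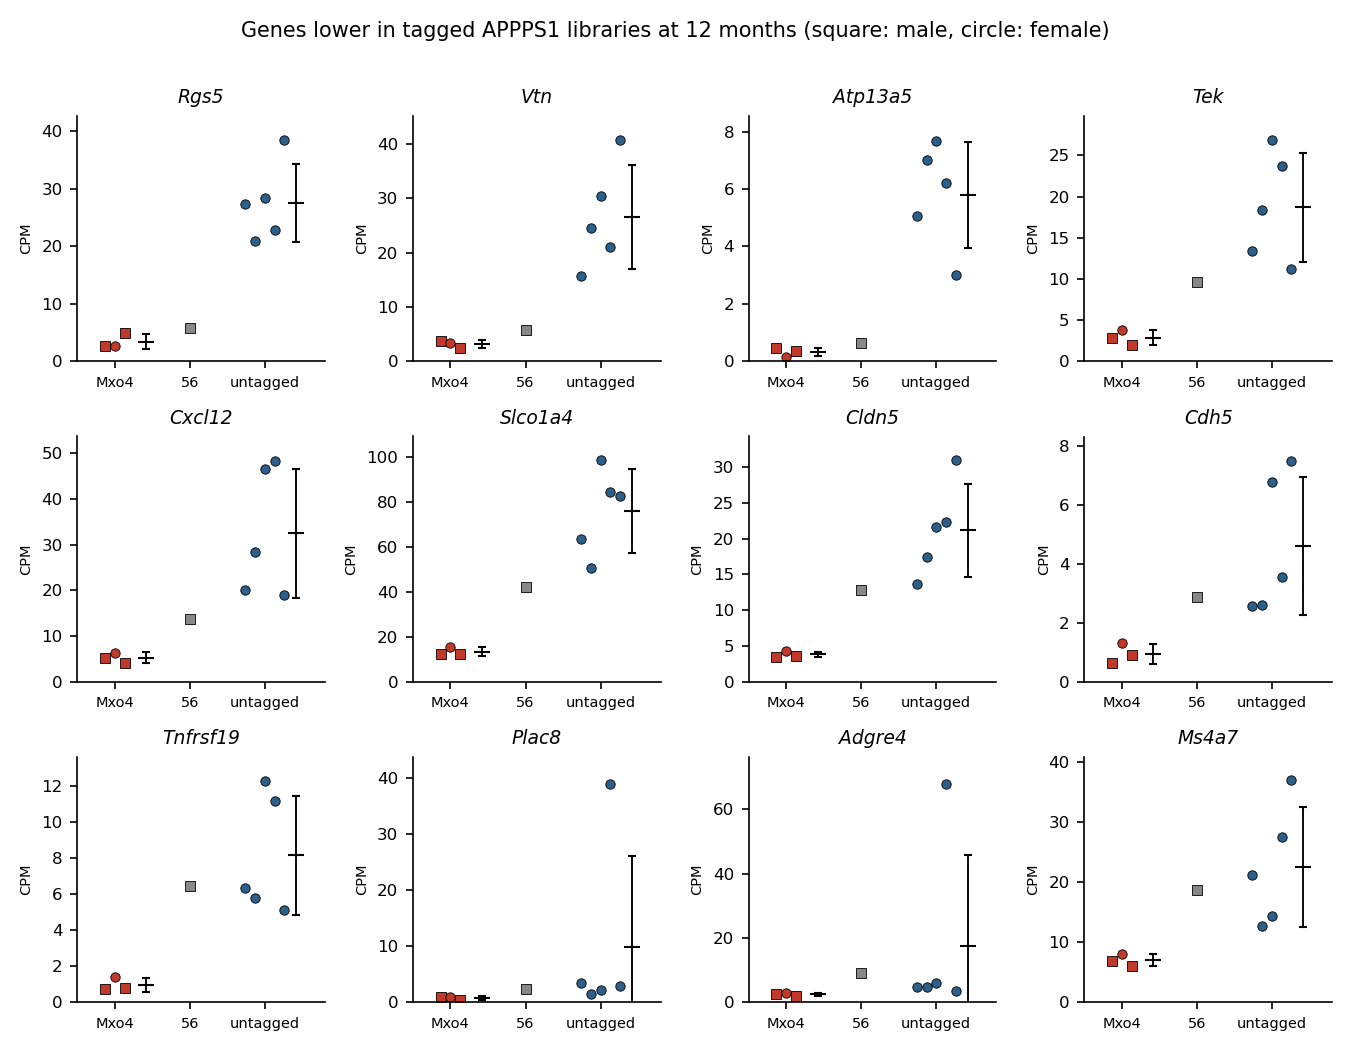
Each panel plots 1 gene in CPM (y axis from 0) for tagged APPPS1 replicates 57 to 59 (red), tagged replicate 56 (grey) and the 5 untagged libraries (blue), as squares for male and circles for female libraries, with the mean ± SD of a group without replicate 56 in black. The vessel genes in the upper 2 rows separate the groups, whereas the untagged mean of Plac8 and Adgre4 rests on replicate 38 at 39 and 68 CPM.

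Other large falls were of genes outside the list. Atp13a5, a transport ATPase found in brain pericytes, stood at 0.45, 0.163 and 0.378 CPM in the tagged libraries and 0.637 CPM in replicate 56, against 5.05, 7.03, 7.68, 6.22 and 3.01 CPM in the untagged ones (-3.83 ± 0.55, adjusted p = 2.9e-05 with 4 tagged libraries, edgeR). Cxcl12, a chemokine that brain endothelium makes, stood at 5.31, 6.42 and 4.11 CPM in the tagged libraries and 13.8 CPM in replicate 56, against 20.1, 28.5, 46.5, 48.4 and 18.9 CPM in the untagged ones (-2.08 ± 0.41, adjusted p = 0.00244, edgeR). Alpl, the alkaline phosphatase of brain vessels, was called as well (-1.75 ± 0.46, adjusted p = 0.0201, edgeR), as were Prss23, a serine protease (-1.75 ± 0.42, adjusted p = 0.0116), and Wfdc1, a secreted protease inhibitor (-1.62 ± 0.47, adjusted p = 0.0314). Ushbp1, outside the transgene response, differed by -2.41 ± 0.53 (adjusted p = 0.0065, edgeR), and its call was lost without replicates 58 or 59. Tnfrsf19, a receptor of the tumour necrosis factor family, stood at 0.72, 1.42 and 0.811 CPM in the tagged libraries, against 6.38, 5.82, 12.3, 11.2 and 5.16 CPM in the untagged ones, and replicate 56 at 6.47 CPM lay within the untagged range. Its 4-library difference was -1.76 ± 0.42 (adjusted p = 0.0103, edgeR). Of the transgene-responsive falls named so far, Cldn5 and Alpl lost their 3-library call without replicate 59.

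Markers of other cells that a CD11b isolate can hold had negative differences as well, though few were called. All 10 such lists had a negative median, which was -2.51 for neutrophils, -1.59 for erythroid cells, -1.27 for monocytes, -1.20 for neurons, -1.14 for choroid plexus and ependyma, -1.06 for astrocytes, -1.01 for T and NK cells, -0.90 for oligodendrocytes, -0.79 for B cells and -0.78 for border-associated macrophages. No gene had a positive difference in 7 of these lists, and 1 gene had one in each of the other 3. A negative median was thus not particular to vessel markers. Plac8, a gene of monocytes and other leukocytes, stood at 0.9, 0.98 and 0.432 CPM in the tagged libraries, against 3.51, 1.47, 2.24, 39 and 3.01 CPM in untagged replicates 35, 36, 37, 38 and 41 (adjusted p = 0.00739 with 4 tagged libraries, edgeR). Adgre4, an adhesion receptor of monocytes, stood at 2.61, 2.94 and 1.89 CPM in the tagged libraries, against 4.7, 4.83, 6.17, 68 and 3.44 CPM in the untagged ones in the same order (adjusted p = 0.0215 with 4 tagged libraries, edgeR). Untagged replicate 38 stood far above the other 4 in both. Without it their 3-library differences shrank to -1.70 and -0.94 and their adjusted p-values were 0.11 and 0.213 (edgeR). The monocyte list median was -0.48 without replicate 38, and 0 of the 10 monocyte markers were called. The same library stood apart in neutrophil markers: the summed level of 10 neutrophil markers was 2536 CPM in it, against 42 to 178 CPM in the other untagged libraries and 66.8 to 123 CPM in the tagged ones, and none of those markers was called. Ms4a7, a marker of border-associated macrophages, stood at 6.93, 8.0 and 6.0 CPM in the tagged libraries and 18.7 CPM in replicate 56, against 21.2, 12.7, 14.3, 27.6 and 37 CPM in the untagged ones (-1.13 ± 0.33, adjusted p = 0.0306 with 4 tagged libraries, edgeR). It was the only one of 10 markers of those macrophages to be called. Of 11 neuronal markers Stmn2, a microtubule regulator, was lower (1.62, 1.09 and 0.216 CPM in the tagged libraries, against 3.44, 1.73, 5.93, 5.82 and 5.37 CPM in the untagged ones, -2.33 ± 0.62, adjusted p = 0.0255, edgeR), and its call was lost without replicates 58, 59 or 38. Of 8 oligodendrocyte markers Mal and Olig1 were called lower without replicate 56, and Mal alone with it (adjusted p = 0.0221 and 0.0923, edgeR), while Mbp, the myelin basic protein, differed by 0.08 ± 0.62. Cd79b, a B cell receptor chain that microglia also express, was the 1 gene called of 3 B cell markers (-0.74 ± 0.17, adjusted p = 0.0095 with 4 tagged libraries, edgeR). No marker was called among 11 of astrocytes, 7 of T and NK cells, 5 of erythroid cells and 8 of choroid plexus and ependyma, and Plac8 and Ly6c2 were the 2 of 10 monocyte markers called. Of the same 10, 3 were called lower with replicate 56 kept, and 1 with it kept and sex as a further term. The 3-library calls of Ms4a7, Mal, Olig1, Cd79b and Ly6c2, and those of Plac8 and Adgre4, were each lost without replicate 59. That of Mal was also lost without 57, that of Cd79b without 58, that of Olig1 without 58, 35 or 41, and that of Ly6c2 without 57, 58 or 38.

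**Figure D3:**
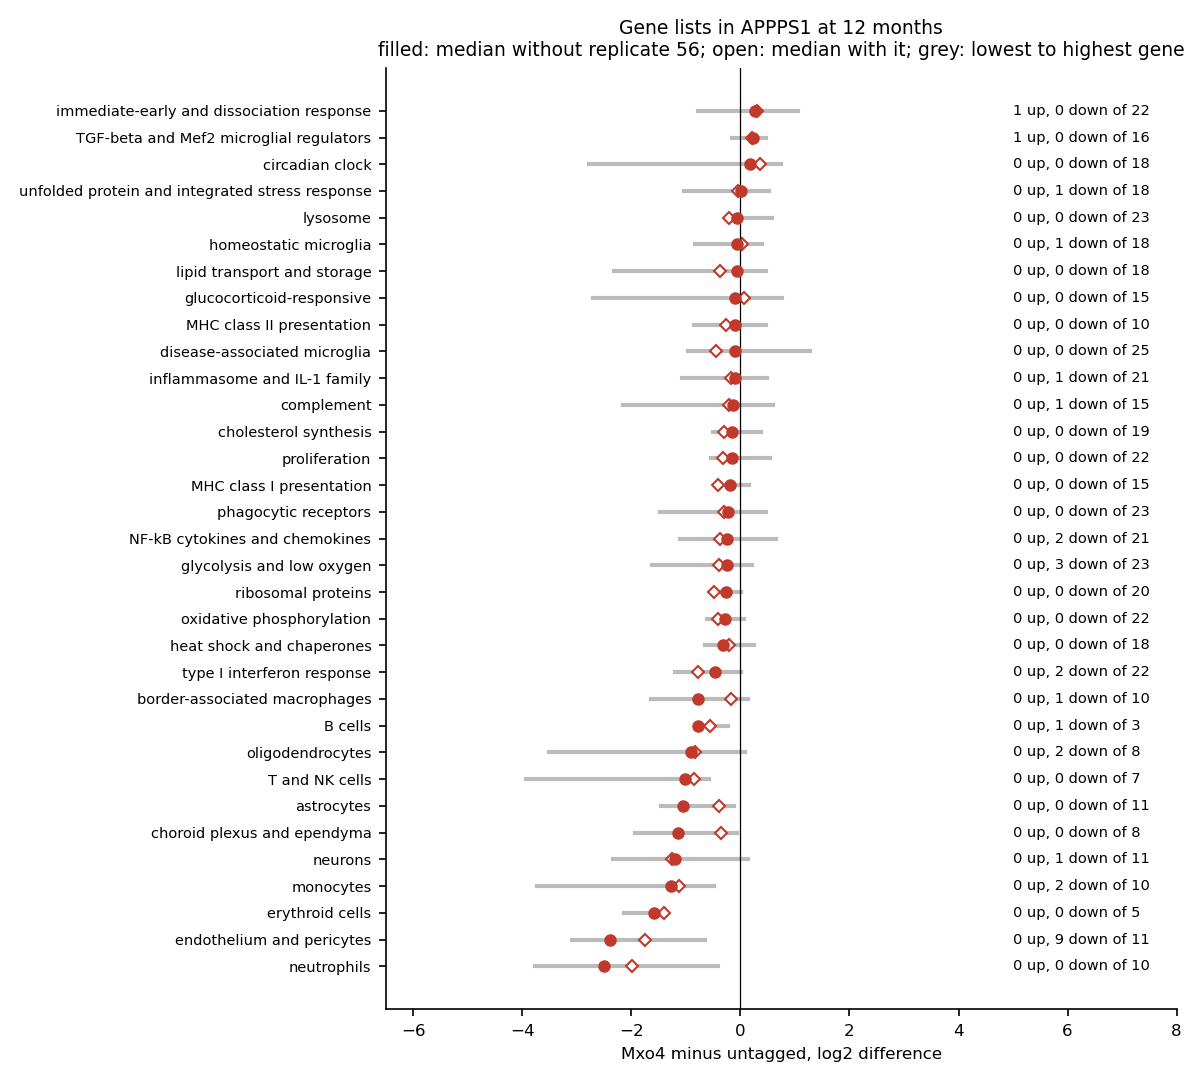
Rows are gene lists and the x axis is the log2 difference, tagged minus untagged, in APPPS1 at 12 months. Filled circles are list medians without replicate 56, open diamonds those with it, grey bars run from the lowest to the highest gene, and counts of genes called without replicate 56 stand at the right. The list of endothelium and pericytes has 9 of 11 genes called lower.

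Few genes of the microglial programmes were called. Of 25 genes of disease-associated microglia, all transgene-responsive, none was called without replicate 56, at a median difference of -0.10. Their summed level was 69674, 73415 and 65462 CPM in tagged replicates 57, 58 and 59, within the untagged range of 52281 to 107916 CPM, and 20232 CPM in replicate 56. Replicate 56 was set aside for its low level of such genes, so the lack of calls without it was shaped by that choice and is no test. With 4 tagged libraries 2 of the 25 were called lower, at a median of -0.46, and 0 with sex as a further term. Itgax was at 372, 301 and 273 CPM in the tagged libraries, against 273, 266, 214, 92 and 193 CPM in the untagged ones, the lowest tagged library being level with the highest untagged one, with an adjusted p of 0.867 with 4 tagged libraries (edgeR). Of 18 autosomal homeostatic genes, Cx3cr1, the fractalkine receptor, stood at 1825, 1625 and 1612 CPM in the tagged libraries, against 2133, 3563, 3440.3, 3164 and 2434 CPM in the untagged ones, but at 3967 CPM in replicate 56, and with 4 tagged libraries it did not pass (adjusted p = 0.336, edgeR). Its 3-library call was lost without replicates 57, 58, 59 or 38. P2ry12, a purinergic receptor, and Tmem119 overlapped between the groups. Without replicate 56, no gene of the lists of lysosome (23 tested), MHC class I (15) and class II (10), ribosomal proteins (20), oxidative phosphorylation (22) or cholesterol synthesis (19) was called, and none of phagocytic receptors (23), lipid transport and storage (18), proliferation (22), heat shock (18), circadian clock (18) or glucocorticoid response (15). With it kept, 4 genes of oxidative phosphorylation, 3 of cholesterol synthesis and 1 ribosomal protein gene were called lower, and 2 phagocytic receptors were called higher and 3 lower. Also with it kept, 2 clock genes and 1 glucocorticoid-responsive gene were called higher, and of lipid transport and storage 1 gene was called higher and 1 lower. Over all autosomal genes 4.05% were called lower and 2.52% higher in that fit. Summed over all tested genes, oxidative phosphorylation, cholesterol synthesis and ribosomal proteins stood at 1520, 419 and 2214 CPM in replicate 56. These sums lay within the range of tagged WT libraries and below the other tagged APPPS1 libraries, so the low level of replicate 56 enters those counts. Ski was the 1 of 16 TGF-beta and Mef2 regulators and Phgdh the 1 of 18 genes of the unfolded protein and integrated stress response that was called.

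A few chemokines and interferon-induced genes were called lower and none higher. Cxcl10, an interferon-induced chemokine, stood at 45.2, 50 and 45 CPM in the tagged libraries and 27 CPM in replicate 56, against 107, 96.2, 89.2, 77.4 and 119 CPM in the untagged ones (-1.19 ± 0.20, adjusted p = 0.000631 with 4 tagged libraries, edgeR). Ifit1, an antiviral RNA-binding protein, stood at 10.5, 10.9 and 5.78 CPM in the tagged libraries and 3.38 CPM in replicate 56, against 16.5, 14.7, 25.3, 25.5 and 31.4 CPM in the untagged ones (-1.5 ± 0.28, adjusted p = 0.00139, edgeR). All tagged values lay below all untagged ones in both genes. These were 2 called of 22 interferon genes without replicate 56, and 7 with it. With it kept and sex as a further term the count was 2. With replicate 56 kept, 2.52% of all autosomal genes were called higher and 4.05% lower. All 22 are transgene-responsive, and their summed level was 304 CPM in replicate 56 against 702 to 1139 CPM in the other tagged libraries and 1058 to 1540 CPM in the untagged ones. The low level of replicate 56 thus enters the count of 7 and the 4-library values of Cxcl10 and Ifit1. Ccl2 and Ccl12, chemokines that attract monocytes, were called lower too, as 2 of 21 NF-kB cytokines and chemokines (-0.78 ± 0.20 and -0.97 ± 0.22, adjusted p = 0.0159 and 0.00777, edgeR). Pycard, the inflammasome adaptor ASC and the 1 gene called of 21 of the inflammasome and IL-1 family, stood at 167, 97.9 and 120.4 CPM in the tagged libraries, against 299.6, 167, 162, 207 and 254 CPM in the untagged ones (-0.72 ± 0.15, adjusted p = 0.00451, edgeR), with the highest tagged library at the level of the lowest untagged ones. Nlrp3 itself overlapped between the groups, at 141, 267 and 229 CPM in the tagged libraries and 115, 181, 143, 166 and 79.9 CPM in the untagged ones. C4b, the 1 gene called of 15 complement genes and outside the transgene response, stood at 29.9, 20.2 and 19.7 CPM in the tagged libraries, against 26.1, 26.3, 127, 148 and 12.5 CPM in the untagged ones (-1.61 ± 0.44, adjusted p = 0.0323, edgeR). The untagged mean rests on replicates 37 and 38, and the call was lost without either of them, or without any tagged library. In the fits of 3 tagged libraries Cxcl10 and Ifit1 lost their call without replicate 59, and Ccl2, Ccl12 and Pycard without 58 or 59, among others. With sex as a term the adjusted p was 0.0789 for Ccl2, 0.0584 for Ccl12 and 0.102 for C4b (edgeR).

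Genes of low oxygen and glycolysis were called lower in 3 of 23 cases, and in 8 with replicate 56 kept, where 2.3% and 4.05% of all autosomal genes were called lower. Their summed level took 24 tested entries, of which 23 are autosomal. It was 3214 CPM in replicate 56, near the 3032 to 3220 CPM of tagged WT libraries, against 6186 to 7447 CPM in the other tagged libraries and 5920 to 8962 CPM in the untagged ones. The low level of replicate 56 thus enters the count of 8 and each 4-library value below. Bnip3, a mitophagy receptor induced by low oxygen, stood at 101, 124 and 115 CPM in the tagged libraries and 65.8 CPM in replicate 56, against 251, 225, 102, 176 and 281 CPM in the untagged ones (-0.98 ± 0.17, adjusted p = 0.000591 with 4 tagged libraries, edgeR). Untagged replicate 37 lay inside the tagged range. Ldha, a subunit of lactate dehydrogenase, behaved likewise (426, 521 and 479.9 CPM in the tagged libraries, against 735, 715, 445, 686 and 911 CPM in the untagged ones, -0.71 ± 0.13, adjusted p = 0.00132, edgeR). Ndrg1, outside the transgene response, stood at 4.95, 9.69 and 7.08 CPM in the tagged libraries, against 15.7, 17, 35.8, 26.5 and 13.3 CPM in the untagged ones (-1.63 ± 0.38, adjusted p = 0.0106, edgeR), and its call was lost without replicates 57 or 59. Phgdh, the first enzyme of serine synthesis, stood at 79.8, 82.6 and 85.6 CPM in the tagged libraries, against 150.3, 107, 90.5, 113 and 128 CPM in the untagged ones (-0.40 ± 0.09, adjusted p = 0.00954 with 4 tagged libraries, edgeR). Nupr1, a stress-induced nuclear protein chosen after its values were seen, stood at 18.3, 20.4 and 19.2 CPM in the tagged libraries and 23.5 CPM in replicate 56, against 48.8, 33.8, 26.5, 42.3 and 51.1 CPM in the untagged ones (-0.94 ± 0.13, adjusted p = 2.9e-05, edgeR). Without 1 library the 3-library call of Bnip3 was lost once, without replicate 57, and that of Ldha without 57, 59 or 41.

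Immediate-early genes, which cells switch on within minutes of stimulation and also during tissue dissociation, were mostly not called. Of 22, Fosb alone passed, and 15 had a positive difference, at a median of 0.27. Their summed level was 17902, 30742 and 34281 CPM in tagged replicates 57, 58 and 59 and 34617 CPM in replicate 56, against 17583 to 23134 CPM in the untagged libraries. Replicate 57 thus lay within the untagged range, and the other tagged libraries lay above it. Fos stood at 2156, 4420 and 5129 CPM in the tagged libraries, against 1941, 2528, 2313, 2241 and 1774 CPM in the untagged ones (0.84 ± 0.37, adjusted p = 0.195, edgeR). Egr1, a zinc finger transcription factor, differed by 0.90 ± 0.31 (adjusted p = 0.0916, edgeR). With replicate 56 kept, 5 of the 22 were called higher, where 2.52% of all autosomal genes were. With it kept and sex as a further term, 0 of the 22 were called, where 80 autosomal genes in all were called higher. Whether handling had a part in the rises was not tested.

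**Figure D4:**
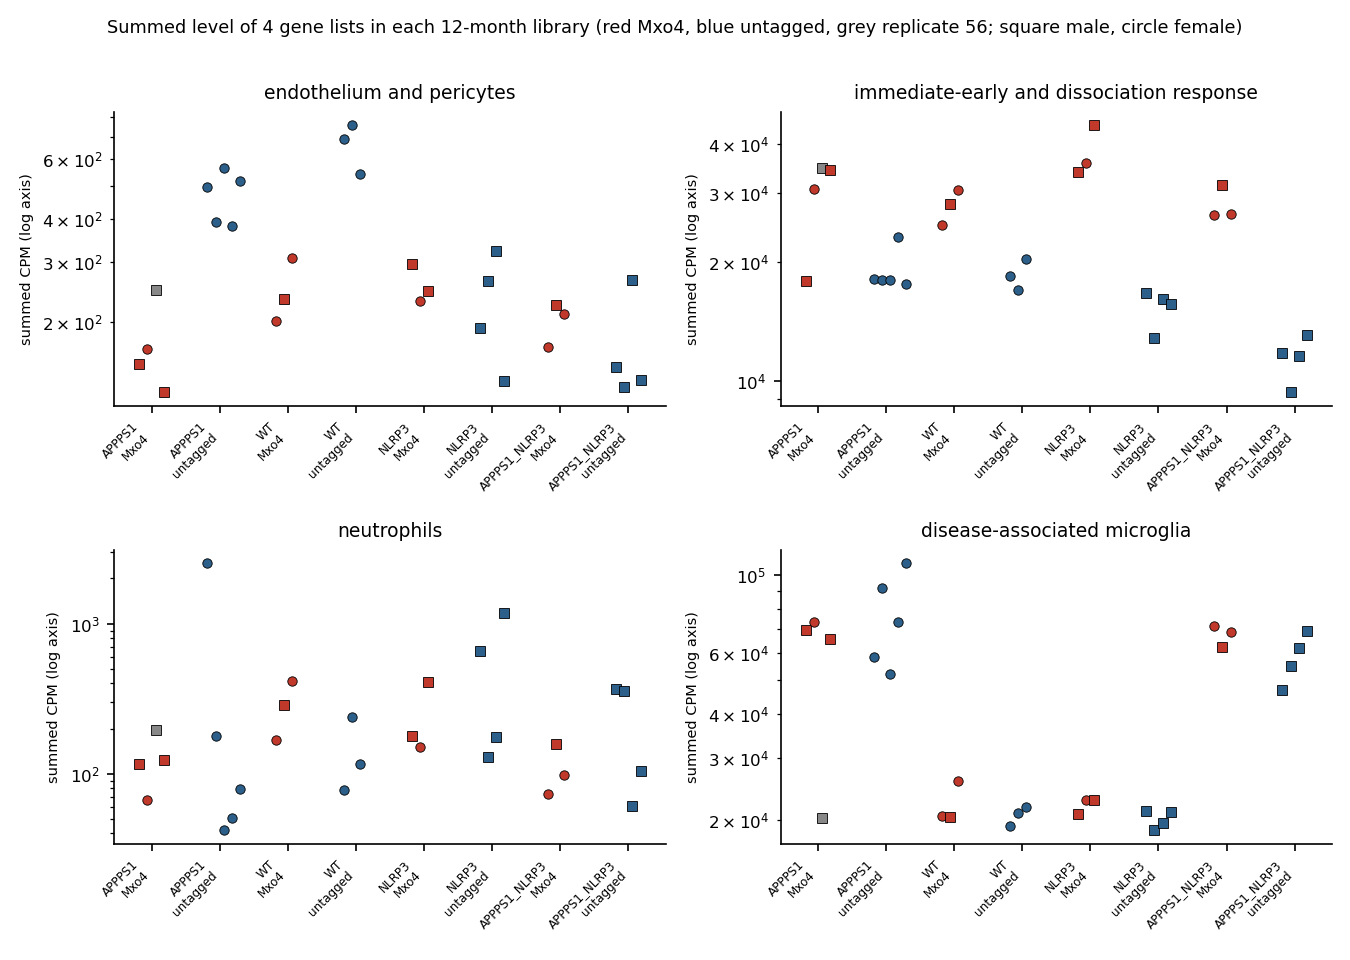
Summed CPM (log axis) of 4 gene lists in each 12-month library, by genotype, with Mxo4 libraries (red) left of untagged ones (blue), replicate 56 in grey, males as squares and females as circles. Sums take all tested genes of a list, on any chromosome. Vessel markers are lower with the tag in APPPS1 and WT, where untagged libraries are all female, and overlap in NLRP3 and APPPS1_NLRP3, where untagged libraries are all male.

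The tag difference could also be read in the other genotypes, in separate libraries. In WT, 69 autosomal genes were called (0.359%), in NLRP3 1357 (7.07%) and in APPPS1_NLRP3 254 (1.32%). Of the 112 genes higher with the tag in APPPS1, 99 were also higher in WT (88.4%, against 50.7% of all autosomal genes), 101 in NLRP3 (90.2%, against 50.2%) and 100 in APPPS1_NLRP3 (89.3%, against 46.8%). Of the 441 lower genes, 352 were also lower in WT (79.8%, against 49.3%), 280 in NLRP3 (63.5%, against 49.8%) and 279 in APPPS1_NLRP3 (63.3%, against 53.2%). Called in both were 5 of the higher genes in WT, 36 in NLRP3 and 26 in APPPS1_NLRP3, which are 4.46%, 32.1% and 23.2% of the 112 and 21.7%, 7.83% and 20.3% of the genes called higher in each of those genotypes. Of the lower genes 23 were called lower in WT too, 29 in NLRP3 and 9 in APPPS1_NLRP3, which are 5.22%, 6.58% and 2.04% of the 441 and 50%, 3.23% and 7.14% of the genes called lower in each of those genotypes. Tmx4 was called in all 3, at 0.76 ± 0.17 in WT (adjusted p = 0.0336), 1.25 ± 0.16 in NLRP3 (adjusted p = 4.4e-06) and 0.75 ± 0.16 in APPPS1_NLRP3 (adjusted p = 0.012, edgeR). Ddx5, an RNA helicase chosen after its values were seen, was called in APPPS1 and all 3 as well, at 0.39 ± 0.10 in APPPS1 (adjusted p = 0.0145), 0.47 ± 0.11 in WT, 0.55 ± 0.10 in NLRP3 and 0.41 ± 0.10 in APPPS1_NLRP3. Odc1 differed by 1.55 ± 0.20 in NLRP3 (adjusted p = 6.2e-06) and 0.99 ± 0.20 in APPPS1_NLRP3 (adjusted p = 0.00814, edgeR), and by 0.84 ± 0.21 in WT (adjusted p = 0.0575). Immediate-early genes were called higher in 13 of 22 cases in NLRP3 (2.4% of all autosomal genes), in 15 in APPPS1_NLRP3 (0.667%) and in none in WT (0.12%).

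Vessel genes split the genotypes. Their list median was -2.40 in APPPS1 and -1.43 in WT, but 0.12 in NLRP3 and 0.14 in APPPS1_NLRP3, with 9, 2, 0 and 0 of 11 genes called lower. Over all autosomal genes 0.24% were called lower in WT, 4.67% in NLRP3 and 0.656% in APPPS1_NLRP3. Summed over all 12 tested genes, vessel markers lay at 201 to 307 CPM in tagged and 544 to 756 CPM in untagged WT libraries, at 231 to 295 CPM in tagged and 134 to 324 CPM in untagged NLRP3 libraries, and at 169 to 225 CPM in tagged and 129 to 265 CPM in untagged APPPS1_NLRP3 libraries. The untagged libraries were all female in APPPS1 and WT and all male in NLRP3 and APPPS1_NLRP3, so sex and Nlrp3 genotype cannot be told apart there. Vtn differed by -2.75 ± 0.42 in APPPS1 with 4 tagged libraries, by -1.96 ± 0.46 in WT (adjusted p = 0.0374), by -1.0 ± 0.43 in NLRP3 and by -0.22 ± 0.44 in APPPS1_NLRP3 (edgeR). Cxcl12 differed by -2.0 ± 0.44 in WT (adjusted p = 0.0324), by 0.02 ± 0.43 in NLRP3 and by -0.10 ± 0.43 in APPPS1_NLRP3. Rgs4, a regulator of G-protein signalling chosen after its values were seen, was lower in all 4, at -2.3 ± 0.44 in APPPS1 (adjusted p = 0.00239), -2.06 ± 0.44 in WT, -1.6 ± 0.42 in NLRP3 and -1.69 ± 0.44 in APPPS1_NLRP3. Neuronal markers had list medians of -1.20 in APPPS1, -2.65 in WT, -3.79 in NLRP3 and -3.36 in APPPS1_NLRP3.

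**Figure D5:**
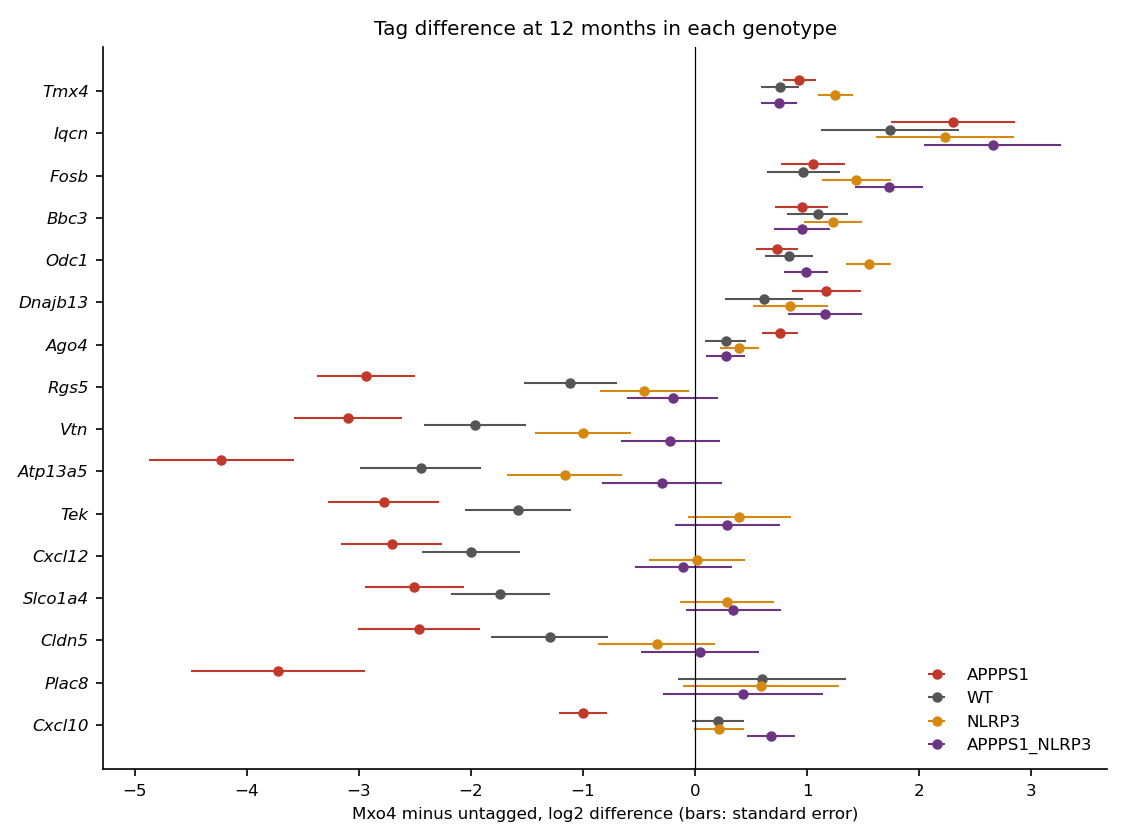
Points are log2 differences, Mxo4 minus untagged at 12 months, and bars their standard errors, for 16 named genes in APPPS1 (red, without replicate 56), WT (grey), NLRP3 (orange) and APPPS1_NLRP3 (purple). The rises at the top lie right of 0 in all 4 genotypes, whereas the vessel genes lie far left in APPPS1 and WT and near 0 in APPPS1_NLRP3.

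The tag difference in APPPS1 was tested against that in WT as a difference of differences. Among 19204 autosomal genes 1 passed (0.00521%), the RIKEN gene 4833420G17Rik, which the rule for names would only count, at 1.49 ± 0.28 (adjusted p = 0.0425, edgeR). It stood at 75.8, 54.8 and 49.7 CPM in tagged APPPS1 libraries, against 27.7, 28.8, 45.2, 38 and 52.9 CPM in untagged ones, and its tag difference in WT was -0.78 ± 0.21. At an unadjusted p under 0.05 (edgeR) there were 1612 of the 19204 genes, where a share of 0.05 is reached with no difference at all. After adjustment, DESeq2 called 25. The gene is transgene-responsive, and with 4 tagged libraries its difference was 1.51 (adjusted p = 0.0157, edgeR). Untagged libraries were all female in APPPS1 and all male in APPPS1_NLRP3, so sex and Nlrp3 genotype cannot be told apart between them. Against APPPS1_NLRP3, 24 genes passed (0.125%), 2 with a higher and 22 with a lower tag difference in APPPS1 (0.0104% and 0.115%). Among them were the transgene-responsive vessel genes Tek at -3.07 ± 0.68, Vtn at -2.87 ± 0.65, Rgs5 at -2.74 ± 0.59 and Slco1a4 at -2.85 ± 0.61, which did not pass with replicate 56 kept (adjusted p = 0.182, 0.0924, 0.0678 and 0.151, edgeR). Outside the transgene response, Egfl7, a secreted protein of endothelium, and Esam, an endothelial adhesion protein, both chosen after their values were seen, differed by -2.25 and -2.68 (adjusted p = 0.0392 and 0.0465) and missed the threshold with replicate 56 kept (adjusted p = 0.0678 and 0.0952, edgeR). With replicate 56 kept 3 genes passed, all among the 24, and Cxcl10 was 1 of them, at -1.89 (adjusted p = 0.00239, edgeR) against -1.68 without it. Cxcl10 is transgene-responsive and replicate 56 was its lowest tagged library, so the low level of replicate 56 enters the -1.89. The tag difference of Cxcl10 was -1.19 ± 0.20 in APPPS1 with 4 tagged libraries and 0.68 ± 0.21 in APPPS1_NLRP3.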

How the data were processed

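The values were gene counts deposited as 1 matrix with a column for each library. Per the submitters' processing notes the authors used Trimmomatic, TopHat and HTSeq with mm10; versions and the strand setting are not given in the sources used here, so overlapping and antisense genes are uncertain. Per the labels' protocols, libraries were made from 10 ng of RNA with SMART-Seq v4 in 2 batches that no label assigns, and no molecular identifiers are named, so PCR copies count as reads. Standard errors and p-values measure the spread between libraries.

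Symbols and positions came from GENCODE vM21 (GRCm38, equal to mm10), which names 53706 of 53801 identifiers, and promoters from RefSeq GRCm38.p6. The test was the quasi-likelihood F test of edgeR 4.0.16 in R 4.3.3, two-sided, with TMM factors, group and second title number as model terms, on 60 libraries (without replicate 56 and a library under 100000 counts). filterByExpr (minimum count 10, minimum total 15) left 19853 genes, and p-values were adjusted over all of them. A standard error is the log2 difference over the root of its F value. Female libraries had at least 100 CPM Xist, male ones at least 50 CPM over 4 Y-linked genes. On simulated counts (18784 genes) the fit recovered 50% of genes changed by 1 and 77.8% of those changed by 2 on the log2 scale, with 2 false calls. These counts were drawn from the model's own spread, with no sex difference, outlying library or choice of libraries. The 2 false calls are thus no estimate for the real comparison. Pairs of tagged libraries differed by a chi-square per degree of freedom of 13.2 to 20.0 and untagged pairs by 22.1 to 70.6, far above counting error.

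Named genes were Nlrp3, App, Prnp, Cst7, Clec7a, Itgax, Apoe, Tmem119 and P2ry12, 1 further gene not reported here, the 15 strongest called rises and the 15 strongest called falls, with at least 5 CPM in the higher group and no overlap between groups, and up to 4 genes of each list with calls or 2 of each other list; predicted and RIKEN genes were counted. Markers of cell types were named besides. The libraries, lists and names were chosen with earlier results of these data known. Alternatives were DESeq2 1.42.0, its size factors, no filter, other terms and sets of libraries, and leaving out each library.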

Additional observations from a re-analysis of the deposited data

Results flagged for a closer look

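Among 58 named genes, 1 library stood far outside the spread of its group in 12 cases, 9 in the tagged and 3 in the untagged group. For the untagged group, chance gives about 1 gene in 20. Adgre4 is counted in both groups. All 9 in the tagged group, taken with all 4 labelled libraries, were in replicate 56. That library was set aside for such values, so these 9 are a description and are not set against chance. It was far below the other tagged libraries in Clec7a (57.6 CPM), Apoe (994 CPM) and Colec12 (35.3 CPM). It was far above them in Cx3cr1 (3970 CPM), Slco1a4 (42.3 CPM), Ms4a7 (18.7 CPM), Cldn5 (12.9 CPM), Adgre4 (9.02 CPM) and Tnfrsf19 (6.47 CPM). Untagged replicate 38 stood above its group in Plac8 (39 CPM, against 1.47 to 3.51 CPM in the other 4) and Adgre4 (68 CPM, against 3.44 to 6.17 CPM). Untagged replicate 41, the shallowest library, stood below its group in App (169 CPM, against 274 to 299 CPM).

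The tag difference differed between genotypes for 4833420G17Rik (1.49, APPPS1 minus WT). Between APPPS1 and APPPS1_NLRP3 it differed for Atp13a5 (-3.93), Tek (-3.07), Prss23 (-3.00), Vtn (-2.87), Slco1a4 (-2.85), Rgs5 (-2.74) and Cxcl10 (-1.68), on the log2 scale without replicate 56. Untagged libraries of these genotypes differ in sex, female in APPPS1 and male in APPPS1_NLRP3, so sex and Nlrp3 genotype cannot be told apart there. With replicate 56 kept, Cxcl10 and 4833420G17Rik passed and the other 6 did not, with adjusted p-values of 0.0678 to 0.182 (edgeR). Replicate 56 was the lowest tagged library in Cxcl10, so its level enters that result.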

How the results depend on the processing

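The count of 553 autosomal genes called was 400 to 710 with DESeq2 size factors, no term for the second title number, sex as a further term, the smallest library kept or p adjusted over autosomes alone. The count was 1262 with replicate 56 kept, 271 with it and sex as a term, 1101 with DESeq2 and 1580 with no filter on low counts. It was 48 with only the libraries compared, 110 with these and the second title number, 339 with only second title number 1 in both groups, 261 with the first title number as a term, 90 with first title numbers 4 and 7 alone and 2 with the female tagged library alone. Leaving out 1 library gave 108 to 1280. The settings with the female library alone, with first title numbers 4 and 7 alone, with autosomal adjustment and with replicate 56 plus sex were chosen after seeing the data. The cause of these shifts was not tested, beyond fewer samples where libraries were left out.

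The 1 gene called for APPPS1 against WT became 25 with DESeq2, 4 with its size factors or with the smallest library kept, 583 with no filter, 2 with sex or the first title number as a term and 3 with autosomal adjustment. It became 0 with no term for the second title number, with second title number 1 alone and with first title numbers 4 and 7 alone. Leaving out 1 library gave 0 to 8. None of the 48 named called genes changed direction under these alternatives. Named genes that were not called did: Cst7 differed by 0.12 without replicate 56 and by -0.37 with it, Tmem119 by -0.07 and 0.21, and Apoe by -0.04, and by 0.20 with sex as a term. Of the 48, 14 kept their call in all 8 leave-outs of a compared library. No paired analysis was made, because the labels do not state which libraries belong together. The replicate number is unique to each library, so it cannot show pairs. Tagged replicate 58 and untagged 37 share both title numbers, as do tagged 59 and untagged 36, and the labels do not say what these numbers mark. The counts of 261 and 90 above are from the fits that use them. Tagged libraries numbered 3, which limits what can be called.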
